A study of Mus musculus with 2 samples.

Results

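The classical histone deacetylases of the mouse, Hdac1 to Hdac10, were examined for chromatin contacts of the microRNA miR-9. These genes were split into class I (Hdac1, Hdac2, Hdac3 and Hdac8) and class II (Hdac4, Hdac5, Hdac6, Hdac7, Hdac9 and Hdac10), and a peak was counted for a gene when the deposited HOMER annotation named that gene as nearest to it. Of the 17922 peaks in the list, 6 were assigned to a histone deacetylase, and these belonged to 4 of the 10 genes. The genes with a peak were Hdac2, Hdac4, Hdac7 and Hdac9. Hdac1, Hdac3, Hdac5, Hdac6, Hdac8 and Hdac10 had none.

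The peaks came from ChIRP-seq (sequencing of the DNA that is pulled down with a chosen RNA from fixed chromatin) of endogenous miR-9 in MLg cells, a mouse lung fibroblast line that carried no further treatment in the labels. Crosslinked chromatin was captured with biotinylated probes complementary to mature miR-9, and the study had 1 capture library and 1 input library, without replicates. The labels and the description of the results name miR-9 as the target, whereas the methods paragraph on this assay names another microRNA, and the labels were followed. The peaks were called for the capture over the input, and the protocol also names a control probe, for which no library was analysed here. The deposited score was 0 for every peak, so position, width, annotation and sequence describe a peak, and its enrichment and depth are unknown. DNA peaks do not show expression, so the fibroblast label was not checked by marker genes, and no histone deacetylase is shown here to be expressed.

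Histone deacetylases remove acetyl groups from lysines of histones and other proteins, and at promoters and enhancers this usually goes with lower transcription. Class I enzymes are mostly nuclear and work inside corepressor complexes. Class IIa enzymes (Hdac4, Hdac5, Hdac7 and Hdac9) have weak catalytic activity of their own, bind MEF2 transcription factors and move between nucleus and cytoplasm when kinases and 14-3-3 proteins act on them, whereas the class IIb enzymes Hdac6 and Hdac10 act largely in the cytoplasm.

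The sequences under the peaks on which the results turn are shown with miR-9 itself. All are plus strand sequences of mm10, read from GRCm38.p6, and mature mmu-miR-9-5p is from RefSeq with its seed (bases 2 to 8) in capitals. The Hdac9 stretch (chr12:34897180-34897379) is shown for the longest miR-9 word in the set, in capitals, which is equal to bases 9 to 18 of the microRNA. The first Hdac4 stretch (chr1:92053523-92053649) is shown for the complement of the seed, in capitals. The second (chr1:92119255-92119374) and the Hdac7 stretch (chr15:97832021-97832320) are shown for runs of alternating C and A, in capitals. The Hdac2 peak (chr10:36917898-36918073) is shown whole, with every CACAG in capitals.
mmu-miR-9-5p: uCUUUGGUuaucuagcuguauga
Hdac9 intron peak: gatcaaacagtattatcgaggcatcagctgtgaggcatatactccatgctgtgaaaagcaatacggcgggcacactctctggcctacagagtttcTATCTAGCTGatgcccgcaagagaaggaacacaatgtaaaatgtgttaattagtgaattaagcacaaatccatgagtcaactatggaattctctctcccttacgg
Hdac4 intron peak, seed match: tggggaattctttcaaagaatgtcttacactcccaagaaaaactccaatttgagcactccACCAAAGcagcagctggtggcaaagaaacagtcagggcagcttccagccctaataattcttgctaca
Hdac4 intron peak, CA run: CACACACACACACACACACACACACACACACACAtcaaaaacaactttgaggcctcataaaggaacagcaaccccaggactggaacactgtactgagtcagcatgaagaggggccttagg
Hdac7 promoter peak: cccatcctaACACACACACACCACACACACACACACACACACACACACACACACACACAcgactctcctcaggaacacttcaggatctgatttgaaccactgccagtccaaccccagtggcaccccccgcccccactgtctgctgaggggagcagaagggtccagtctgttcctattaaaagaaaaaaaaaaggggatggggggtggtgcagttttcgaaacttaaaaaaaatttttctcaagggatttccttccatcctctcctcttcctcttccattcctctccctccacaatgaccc
Hdac2 upstream peak: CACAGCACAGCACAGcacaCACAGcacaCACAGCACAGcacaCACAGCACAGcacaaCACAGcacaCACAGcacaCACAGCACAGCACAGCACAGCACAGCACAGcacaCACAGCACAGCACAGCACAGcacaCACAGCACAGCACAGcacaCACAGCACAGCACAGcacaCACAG

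By class, 1 of 4 class I genes and 3 of 6 class II genes had an assigned peak, with 1 peak (95% Poisson interval 0.0253 to 5.57) and 5 peaks (1.62 to 11.7). These intervals cover counting error only, and they overlap. All 5 class II peaks lay at class IIa genes, of which 3 of 4 had one, and neither of the 2 class IIb genes did. Among 21000 protein-coding genes with a curated mRNA, 35.5% had a peak assigned at any distance, so 4 of 10 histone deacetylase genes is close to the background. The single class I peak was intergenic and far from its gene, whereas class II had 3 peaks in introns, 1 at a promoter and 1 in the 3′ UTR of a neighbouring gene. With 1 capture library none of these counts has a replicate check.

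Hdac7 was the 1 member with a peak near a transcription start site (TSS). Within 2 kb of the deposited TSS, 1 of 10 members had a peak centre, against 5.69% of all genes, and with the feature promoter-TSS it was again 1 of 10, against 2.47%. Counting every curated mRNA start instead gave 1 of 10, against 6.64%. The study selected Hdac7 from this assay for its later experiments, so this peak is not independent evidence that the family carries promoter contacts. The study also reports qPCR after ChIRP at promoters of its selected genes, which lies outside the peak list counted here. Among 10 genes, 1 is the smallest count above 0, so no excess over the background can be read from it.

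The Hdac7 promoter peak spanned 698 bases (chr15:97831732-97832429), from 35 bases downstream to 662 bases upstream of the deposited TSS, with its centre 313 bases upstream. It was wide, at percentile 90.1 of all peaks and 83.0 of the promoter peaks. Hdac7, a class IIa enzyme known from vascular and thymic development, had 4 curated starts, more than any other member. The peak covered the start shared by 3 curated mRNAs, at position 97831767, and its centre lay at -585 bases from a neighbouring start, where a negative distance means upstream. For the 4 mRNAs that begin at 97844502, farther upstream, the same peak lay inside an intron, and from the remaining start its centre lay at -17.2 kb. Which of these transcripts MLg cells use was not measured.

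Sequence changed along the Hdac7 promoter peak. The first 100 bases, at the TSS end, had 79% G and C and 20 CG dinucleotides, and the other bases had 53.5% G and C and 17 CG dinucleotides. Alternating C and A filled 50 bases in 2 adjoining runs, 263 to 312 bases upstream of the TSS, so the longer run of 38 bases ended next to the peak centre. Of the 32-base words of the peak, 94.9% occurred once on the assembled chromosomes, and the words inside the run occurred up to 1039301 times. The longest stretch in common with miR-9 was 6 bases, a length that 85.0% of all peaks reached.

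The second peak assigned to Hdac7 was 164 bases wide (chr15:97856808-97856971) and lay at -12.4 kb from the nearest Hdac7 start, which is the most upstream start of the gene. By annotation it fell in exon 10 of 10 of Vdr, the vitamin D receptor gene, within the 3′ UTR, and the Vdr start was 51.4 kb away. HOMER assigns a peak to the nearest TSS, and the name Hdac7 here rests on that rule. Beyond the 3′ end of Hdac7, a peak of 166 bases lay in intron 2 of 2 of Slc48a1, a haem transporter gene, to which it was assigned. The promoter peak stood 41.3 kb and 24.4 kb from these neighbouring peaks, where the median gap to the nearest peak was 31.8 kb over the whole list.

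**Figure D1:**
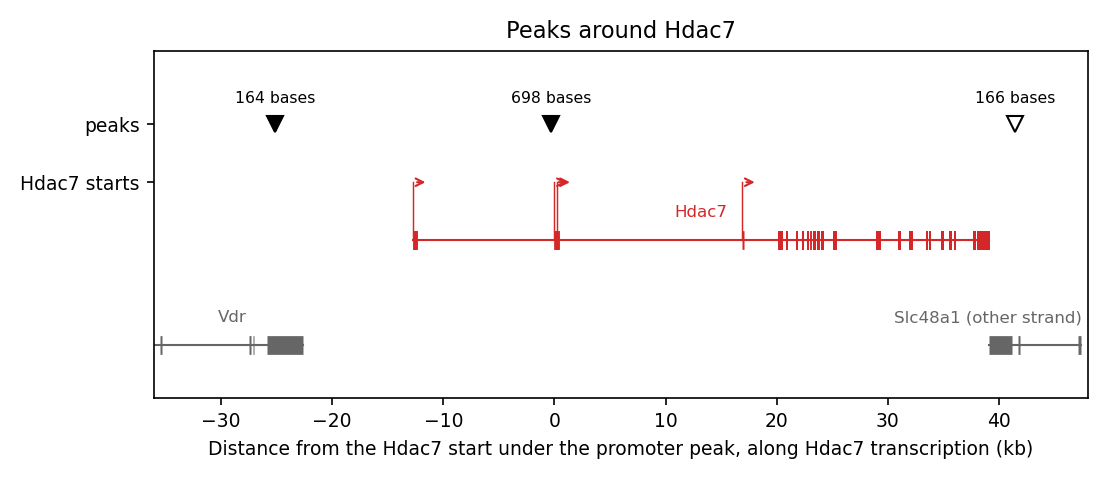
Peaks around Hdac7, with distance in kb from the Hdac7 start under the promoter peak, positive along Hdac7 transcription. Filled triangles are peak centres assigned to Hdac7, the open one is assigned to Slc48a1, thick bars are exons of curated mRNAs and arrows are Hdac7 starts, and of the 3 peaks only the one of 698 bases meets a start.

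Hdac4 had 2 peaks, both deep in introns, at width percentiles 51.9 and 77.1 of all peaks. Hdac4 codes for a class IIa enzyme known for repressing MEF2 targets in muscle and cartilage. The first peak was 440 bases wide (chr1:92053420-92053859), lay in intron 3 of 26 and had its centre 126.7 kb downstream of the TSS. It held the complement of the complete miR-9 seed, ACCAAAG, on the plus strand. Hdac4 is transcribed from the minus strand, so its sense strand carried the letters of the seed itself and not a target site. Either orientation of these 7 bases was present in 8.65% of all peaks and 9.91% of those 400 to 500 bases wide. The second peak was 581 bases wide (chr1:92119255-92119835), lay in intron 2 of 26, 60.8 kb downstream of the TSS, and began with a CA run of 34 bases. Outside that run it was almost free of repeated words, with 97.6% of its 32-base words present once in the assembly, and in the first peak all were.

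Hdac9 had 1 assigned peak, in an intron near its 5′ end. Hdac9, the longest gene of the family at 869.5 kb, codes for a class IIa enzyme known from heart and vessel wall. The peak was 592 bases wide (chr12:34897096-34897687), in intron 2 of 27, with its centre 19.7 kb downstream of the TSS. It held TATCTAGCTG on the plus strand, which is bases 9 to 18 of miR-9 written as DNA, and Hdac9 is transcribed from the minus strand, so its sense strand held the complement. A miR-9 word of 10 bases was present in 6.04% of all peaks and 7.24% of those 500 to 600 bases wide, and this particular word in 0.976% and 1.13%. Words of this kind could meet either the microRNA or the capture probe, and those cannot be told apart here. All 32-base words of the Hdac9 peak occurred once in the assembly.

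The Hdac9 gene span also held 2 peaks that were assigned to Twist1, a transcription factor gene beyond its 3′ end. The larger, of 569 bases, lay in intron 27 of 27 on an Lx5c element, and the other, of 127 bases, in intron 23 of 27 on an L1_Mm element, both of the L1 family of LINE repeats. The median 32-base word of these peaks occurred at 10846.5 and 4032 places, and uniqueness at the length of the reads was not tested. Another Twist1 peak, of 417 bases, lay within 10 kb beyond the Hdac9 3′ end. It held a miR-9 word of 9 bases, a length that 12.8% of all peaks reached.

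Class I carried a peak only at Hdac2, which codes for a catalytic subunit of the NuRD, Sin3 and CoREST corepressor complexes. The peak was 176 bases wide and its centre lay 56.6 kb upstream of the Hdac2 TSS, in intergenic sequence annotated as a (CACAG)n simple repeat. It held 27 CACAG units, which made up 76.7% of its bases, and as many units on either strand were found in 0.279% of all peaks. Only 14.5% of its 32-base words occurred once in the assembly, and 80.7% occurred 5 times or more. Whether reads of the sequenced length had a single place here was not tested. The neighbouring peaks were 218.6 and 227.1 kb away. The gene with the next nearest start was Marcks, at 220.9 kb.

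For the other class I genes no peak was assigned. Hdac1, the close paralogue of Hdac2, had its nearest peak 75.4 kb from a start. For Hdac3, a catalytic subunit of nuclear receptor corepressor complexes, the distance was 78.4 kb. Hdac8, which deacetylates the cohesin subunit SMC3, had none in a span of 220.7 kb, with the nearest peak 72.6 kb from its start. The class IIa gene Hdac5, known for its part in cardiac growth, had its nearest peak at 73.4 kb. Hdac6, the tubulin deacetylase, and Hdac10, a polyamine deacetylase, were the farthest of the family from any peak, at 189.2 and 186.8 kb. A gene without a peak in this list had no call over the input, which is not a measure of absence, since depth is unknown.

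**Figure D2:**
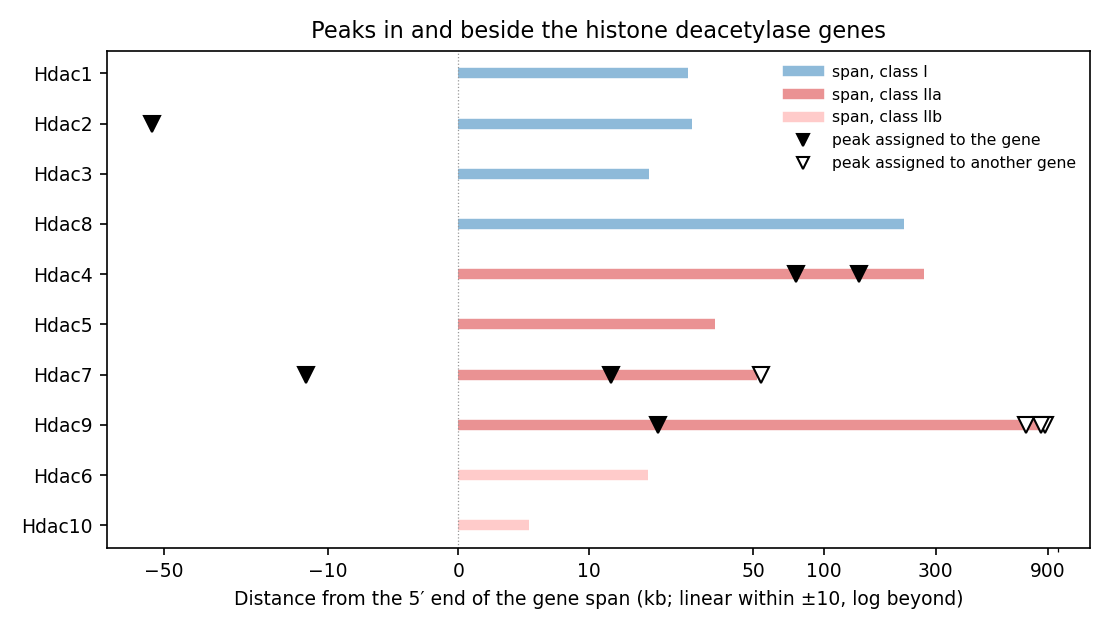
Gene spans of the 10 histone deacetylases (bars, coloured by class) and peak centres (triangles), in kb from the 5′ end of each span, linear within 10 kb and logarithmic beyond. Filled triangles are assigned to the gene and open ones to a neighbour, and no peak falls in a class I or class IIb span.

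Gene length differed strongly between the members, from 5.40 kb for Hdac10 to 869.5 kb for Hdac9, so peaks were also counted per length. Some part of the gene span met a peak in 3 of 10 members (Hdac4, Hdac7 and Hdac9), against 23.5% of all genes. Class II spans held 6 peak centres in 1246 kb, or 0.482 per 100 kb (0.177 to 1.05). These include the peaks on L1 elements in the Hdac9 span that were assigned to Twist1. Class I spans held 0 in 292.9 kb, with an exact interval of 0 to 1.26 per 100 kb. A difference between the classes was therefore not detectable at these counts. From the peak density of each chromosome, 2.07 peak centres would lie in the class I spans and 4.99 in the class II spans. Long genes made up most of these totals, with 1.64 for Hdac8 in class I, and 1.94 for Hdac4 and 2.15 for Hdac9 in class II. Without Hdac9, class II had 3 in 376.5 kb, or 0.797 per 100 kb (0.164 to 2.33). Over all protein-coding gene spans the density was 0.823 per 100 kb.

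The counts were then set beside those of genes of like length. In the range of 200 to 300 kb, 71.0% of genes held a peak, and of the members in it Hdac4 had 2 and Hdac8 had 0. Hdac9 had 3, where genes of over 600 kb had a median of 4. Between 50 and 200 kb, where Hdac7 belongs, 47.6% held a peak. In the range of 20 to 50 kb it was 25.4%, and Hdac1, Hdac2 and Hdac5 had none. Below 20 kb it was 8.24%, and Hdac3, Hdac6 and Hdac10 had none.

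The nearest peak to a curated start lay at a median of 73.0 kb for the 10 members and 42.0 kb for all genes, for which the upper quartile was 101.9 kb. Hdac7 stood apart with 0.313 kb, and 98.2% of all genes had their nearest peak at least as far. The study had picked Hdac7 from this assay, and its 4 curated starts gave it more places to be near a peak. This rank is therefore no independent result. Hdac9 followed with 19.7 kb (68.4%). Hdac2, Hdac4, Hdac8, Hdac5, Hdac1 and Hdac3 lay between 56.6 and 78.4 kb, between the median and the upper quartile of all genes, and classes I and II were mixed in that order. Hdac6 and Hdac10 lay beyond the upper quartile, with 11.1% and 11.3% of genes at least as far.

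**Figure D3:**
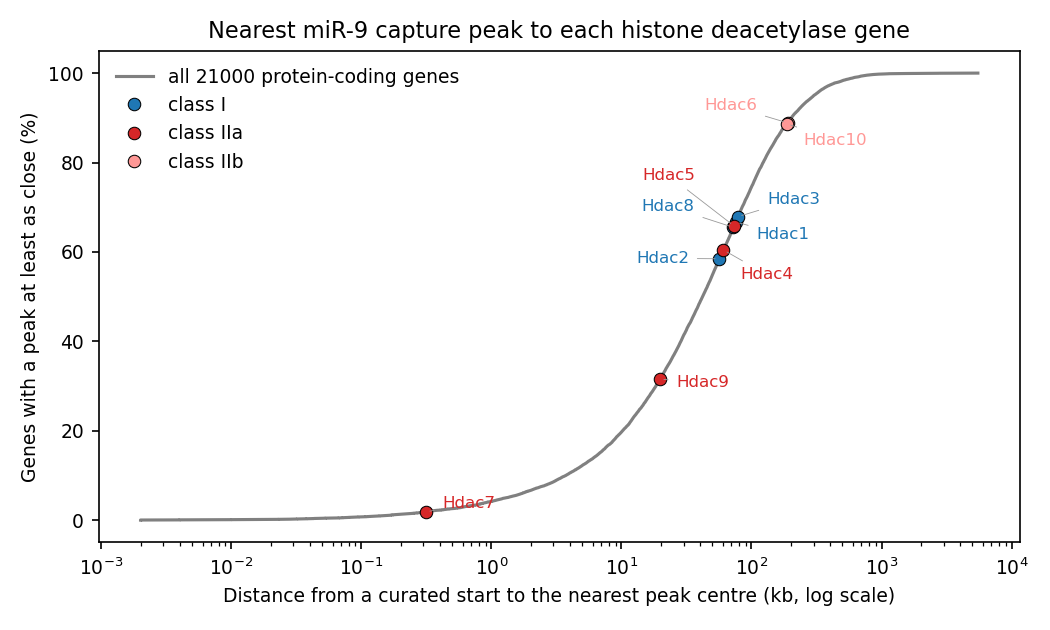
Distance in kb (log scale) from a curated mRNA start to the nearest peak centre, with the share of 21000 protein-coding genes that have a peak at least as close. The grey line is all genes and the points are the histone deacetylases by class, with Hdac7 at 0.313 kb and the other 9 from 19.7 to 189.2 kb.

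The features of the 6 peaks were set beside those of the whole list, and 6 peaks are too few for a comparison of shares. Introns held 3 of them and 42.1% of all peaks, intergenic sequence 1 (49.5%), promoters 1 (3.33%) and 3′ UTRs 1 (1.24%). A repeat class was annotated for 1 of 6, that of Hdac2, against 48.7%. Wide peaks, of over 250 bases, were 4 of 6 against 52.7%, and the narrow ones were the Hdac2 peak and the Hdac7 peak in Vdr. The peaks of Hdac2 and Hdac7 were rich in G and C, at 57.4%, 57.2% and 56.7%, all above percentile 96 of the list, which had a median of 42.2%. The Hdac4 peaks had 47.7% and 50.9%, and the Hdac9 peak 42.1%. CG dinucleotides, relative to the number expected from base content, reached a ratio of 0.68 at the Hdac7 promoter and from 0 to 0.31 at the other 5, against a median of 0.17 over all peaks and 0.58 over promoter peaks.

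**Figure D4:**
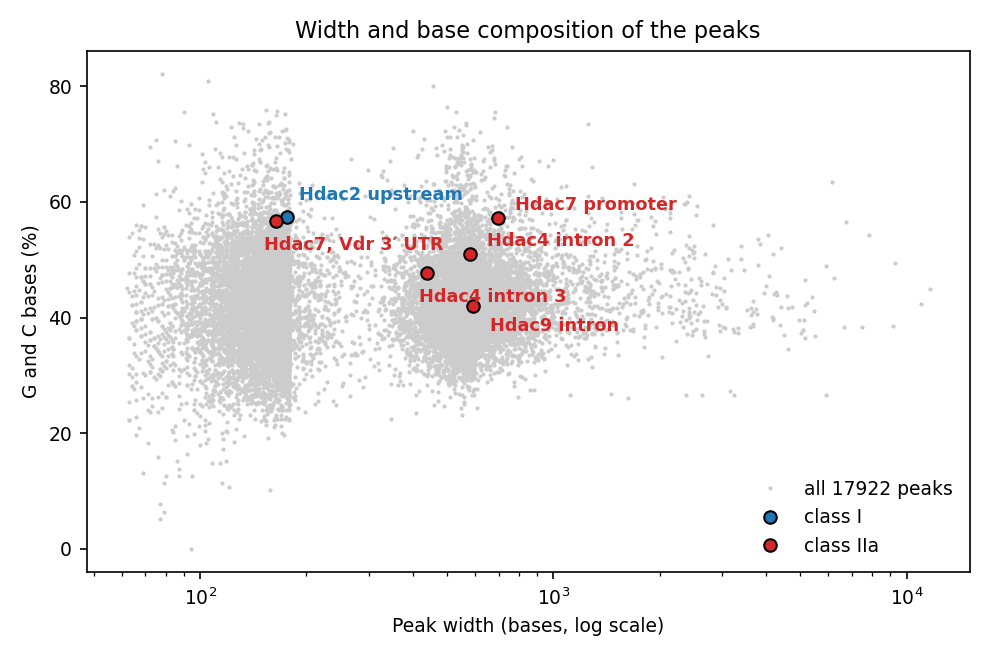
Width in bases (log scale) against the percentage of G and C bases for all 17922 peaks (grey) and for the 6 peaks of the histone deacetylases, coloured by class. The Hdac7 promoter peak is the widest of the 6, at 698 bases and 57.2%, and the Hdac2 peak and the Hdac7 peak in Vdr lie among the narrow peaks.

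G-quadruplex (G4) motifs and miR-9 words were counted in the 6 peaks, again too few for a comparison of shares. A G-quadruplex motif, that is GGG 4 times, with 1 to 7 bases of any kind between the repeats, on either strand, was present in 0 of 6 peaks and 5.65% of the list. With loops of up to 12 bases it was present in 2 of 6, the first Hdac4 peak and the Hdac7 promoter peak, against 9.21%. At Hdac7 this looser motif lay 538 to 579 bases upstream of the TSS. The motif is a pattern of letters and not a folded G4. At least 6 CA or TG units in a row were found in 2 of 6 peaks, against 15.0% of the list. These were the second Hdac4 peak and the Hdac7 promoter peak. Among peaks of 500 to 600 and 600 to 700 bases the shares were 18.4% and 19.7%. A miR-9 word of 8 bases, on either strand, was found in 1 of 6 (Hdac9) against 26.4%. One of 7 bases was found in 2 of 6 (Hdac9 and the first Hdac4 peak) against 54.3%. One of 10 bases was found in 1 of 6 (Hdac9) against 6.04%.

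The gene starts themselves were compared through RefSeq promoter windows of 300 bases, which run from 250 bases before to 50 after a start. Windows were present for Hdac2, Hdac4, Hdac5, Hdac6, Hdac7, Hdac8 and Hdac9, and Hdac1, Hdac3 and Hdac10 are named only. The Hdac7 window under the peak had 65.7% G and C and a CG ratio of 1.09, and no G4 motif. The windows of Hdac2 (69.7%, ratio 1.01) and Hdac4 (68.0%, ratio 0.98) were alike in base content, and no peak lay near them. The G4 motif was present in the windows of Hdac4 and Hdac5 and in those of the Hdac7 starts at 97814863 and 97831495, and in 18.6% of 32851 windows over all genes. A CA run of 6 units was present in 1.01% of windows and in none of the members' windows, since the Hdac7 run lies just beyond its window. The longest miR-9 word ranged from 4 bases at Hdac2 to 7 at Hdac8, Hdac9 and the most upstream Hdac7 start, and 32.2% of all windows had 7 or more.

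Partners of the histone deacetylases were counted in the same way, from lists of complexes and regulators. The class IIa partners (MEF2 factors, kinases and 14-3-3 proteins) had 11 of 17 with an assigned peak and 3 near a TSS, all of them 14-3-3 genes: Ywhaz at -363, Ywhah at -297 and Ywhag at 741. No MEF2 gene had a peak near its TSS. Their median length was 32.7 kb, which does not place every gene of the list in 1 length range. An assigned peak was present for 25.4% of all genes below 20 kb, 38.1% of those of 20 to 50 kb and 52.0% of those of 50 to 200 kb. The part of gene length in these counts was not tested.

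The complexes of class I enzymes were counted likewise. NuRD had 3 of 12 genes with an assigned peak and 1 near a TSS, the remodeller gene Chd3 at -526. Sin3 had 2 of 13 and 1 near a TSS, the scaffold gene Sin3b at -370, with a narrow peak of 83 bases. The CoREST and MiDAC list had 3 of 12 and none near a TSS. The acetyltransferases, which oppose the deacetylases, had 5 of 12, and 2 near a TSS, Kat2b and Kat7. Kat2b had a promoter peak at -453 (chr17:53566271-53566765) and an intron peak at -1394 (chr17:53582495-53582970), measured from different starts. Kat7 had an intron peak at 1119. Of the sirtuins, the NAD-dependent deacetylases, 2 of 7 had an assigned peak and none near a TSS. Hdac11, the single class IV enzyme, had 1 intergenic peak of 141 bases, 6.69 kb upstream of its TSS. The shares of any assigned peak and of peaks near a TSS are to be read against 35.5% and 5.69% of all genes.

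**Figure D5:**
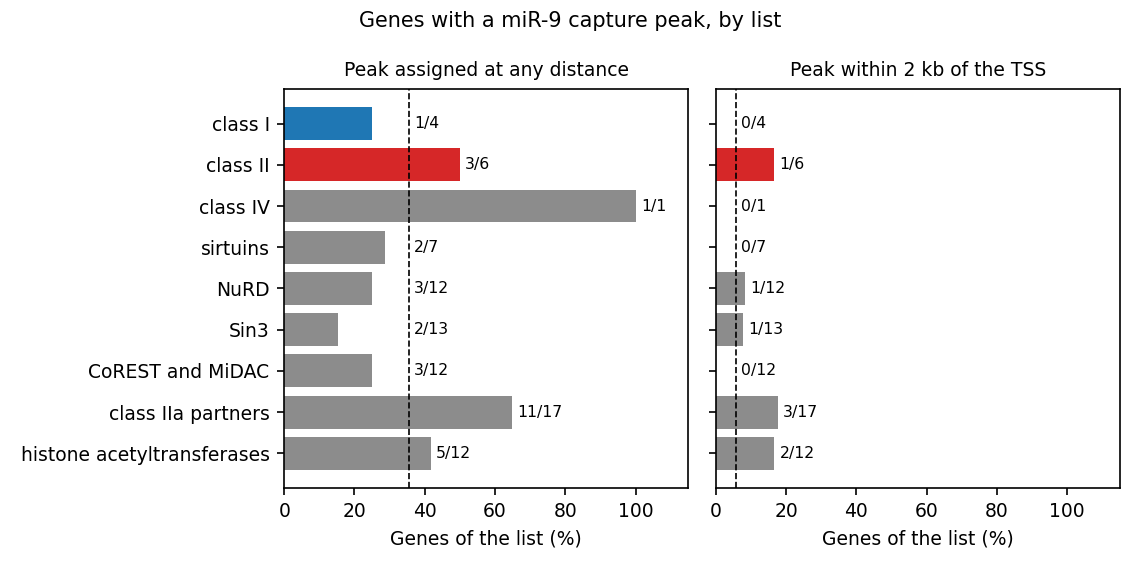
Percentage of the genes of each list with an assigned peak at any distance (left) and with a peak centre within 2 kb of the deposited TSS (right), with counts beside the bars. Dashed lines are the shares of all protein-coding genes, 35.5% and 5.69%. Class II, the class IIa partners and the acetyltransferases are above the line in both panels. Class II is so through only 3 and 1 of 6 genes, counts too small to show an excess. The acetyltransferases are so through 5 and 2 of 12 genes and the partners through 11 and 3 of 17. No excess was tested for these lists either, and all lists were chosen with earlier results of these data known.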

How the data were processed

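MLg cells gave 1 miR-9 ChIRP library and 1 input library. Per the methods and the submitters' processing notes, the authors trimmed single-end reads with Trimmomatic 0.36, aligned them to mm10 with Bowtie2, removed duplicates, called peaks with MACS over the input on an uncorrected p-value at more than 1 shift size, merged them with bedtools and annotated them with HOMER. Bowtie2 by default reports a repeated read at 1 of its places. The authors deposited peak positions, widths and distances to a TSS in bases, and a peak score that was 0 in all 17922 rows and was not used further.

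The annotation of 8093 peaks was split over fields and was rejoined, and 64 peaks had no gene name. Genes, starts and sequences came from RefSeq on GRCm38.p6, the assembly behind mm10. Wide peaks were over 250 bases, near a TSS meant within 2 kb, copy numbers used 32-base words, and intervals are exact at 95%. Depth was unknown and no test was run. The scripts, in Python 3.11.15 with pandas 2.3.3, scipy 1.17.1 and pysam 0.24.0, were tested on simulated positions. All 10 members were named, with list genes that had a peak within 2 kb of the TSS and genes that shared a peak with a member. Members and lists were chosen with earlier results of these data known. The genes of 1 further list are not reported here.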

Additional observations from a re-analysis of the deposited data

How the results depend on the processing

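The count of members with a peak (4) became 3 when a peak had to overlap the gene span, when only wide peaks were kept and when peaks on repeats were left out, and the recomputed nearest start gave 4. The class I count fell from 1 to 0 under each of those 3 settings. Its only peak was narrow, intergenic and on a simple repeat. Class II had 6, 4 and 5 peaks, and the 6 included the Twist1 peaks on L1 elements in the Hdac9 span. The Hdac7 promoter peak was the single peak near a TSS under all 4 alternatives. The density difference between the classes, class II minus class I, was 0.48 per 100 kb, 0.59 with 10 kb flanks and 0.40 for wide peaks. Peaks with a G4 motif went from 0 to 2 with loops of up to 12 bases, and peaks with a miR-9 word from 1 to 2 with 7-base words and stayed at 1 with 10-base words. No paired analysis was possible because there was 1 library of each kind and no test, and leaving out a replicate was not possible. Depth, which limits every missing peak, was unknown.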
